A study of Mus musculus with 2 samples.

Results

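Skin given both ultraviolet radiation (UVR) and 0.03% of the retinoid 9-cis HPR was set against untreated skin. The comparison rested on 1 tissue section per group: 644 spots of the treated section and 339 spots of the untreated section, together 983 of the 2174 spots with at least 200 unique molecular identifiers (UMIs) in a series of 4 sections. All animals were female SKH-1 mice, a hairless strain, aged 10 to 12 weeks. The groups were UVR plus 9-cis HPR, UVR plus 0.1% retinol, UVR alone and untreated control skin, the first pair mounted on one capture area and the last pair on another. Transcripts were counted with a probe-based Visium assay, which reads RNA at barcoded spots under a section, each spot covering several cells. A vehicle group, the UVR dose, the treatment schedule and the number of animals are not given in the sources used here. UVR, 9-cis HPR and the capture area all separate the 9-cis HPR section from the control section, so their contributions cannot be told apart. With 1 section a group there is no test, and every interval below is an exact 95% interval for counting error only.

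The interfollicular epidermis renews itself from basal keratinocytes, which carry Krt5 and Krt14, through spinous cells, which switch to Krt1 and Krt10, to cornified cells, which build an envelope of loricrin, filaggrin and related proteins. Wounded, irradiated or proliferating epidermis replaces part of this programme with the keratins Krt6, Krt16 and Krt17 and with small proline-rich proteins. Retinoids act through the nuclear receptors RAR and RXR, and in epidermis they are known to hold back terminal differentiation and to raise epidermal growth factor receptor ligands and retinoid-binding proteins.

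The 9-cis HPR section had 1249928 UMIs with a median of 653 per spot, and the control section had 326095 UMIs with a median of 527. A gene with no UMI could have had up to 2.40 CPM (UMIs scaled to a common library total) in the 9-cis HPR section and up to 9.20 CPM in the control section, the level of 3 UMIs. The labels place each section as upper or lower on its area, which was read here from the tissue image. The spot grid runs the opposite way on both areas, and the files do not settle which of them the labels meant. Reading the grid would put the retinol and UVR sections in the places of the 9-cis HPR and control sections. Under it the stress keratins, small proline-rich genes, Krt77, Aqp3, Fabp5, Crabp2 and Cd74 turned direction, whereas Krt10, Lor, Flg and Alox8 did not. Over whole sections, however, Krt10 (316 CPM with retinol, 566 CPM with UVR), Lor (10610 and 13550 CPM) and Flg (228 and 292 CPM) then differed by less than 2-fold.

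Spots were called epidermal where they had at least 1000 UMIs and Krt5, Krt14 and Lor made up at least 3% of them. The rule took 181 spots of the 9-cis HPR section (28.1% of spots, 24.7% to 31.8%) and 72 spots of the control section (21.2%, 17.01% to 26.0%). Epidermal spots carried 75.8% of all UMIs in the 9-cis HPR section and 51.7% in the control section, with a median of 4378 UMIs a spot under 9-cis HPR and 1869 in control skin. Just inside the limit, 47 epidermal spots of the 9-cis HPR section and 1 of the control section had 3% to 4% of their UMIs in the 3 genes, and just outside it 19 spots of the 9-cis HPR section and 5 of the control section had 2% to 3%. Another 71 spots of the 9-cis HPR section and 100 of the control section met the share but had fewer than 1000 UMIs. The median share of the 3 genes in epidermal spots was 4.82% under 9-cis HPR and 9.80% in control skin, so the control spots were richer in the genes that chose them. Spots in which skeletal muscle markers reached 1% made up 31.8% of the 9-cis HPR section and 11.5% of the control section. In such mixed spots, fewer cells of a type and less RNA per cell cannot be told apart.

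Epidermis of the 9-cis HPR section was marked by wound-type keratins, small proline-rich genes, Aqp3, Fabp5 and Alox8, and it had far less of the spinous keratins Krt77 and Krt10 than control epidermis. Of 1190 genes with at least 100 UMIs over both epidermal samples, 127 reached 2-fold higher with 9-cis HPR (10.7%) and 68 reached 2-fold lower (5.71%). The whole interval lay past 2-fold for 55 of the higher genes and 32 of the lower ones. Over whole sections, 119 of 1641 genes reached 2-fold higher (7.25%) and 122 reached 2-fold lower (7.43%). When epidermal, muscle-bearing and remaining spots were given the same weight in both sections, the whole-section split was 137 higher and 78 lower. The median gene of the epidermal comparison had a log2 ratio of 0.11, against which single ratios may be read.

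**Figure D1:**
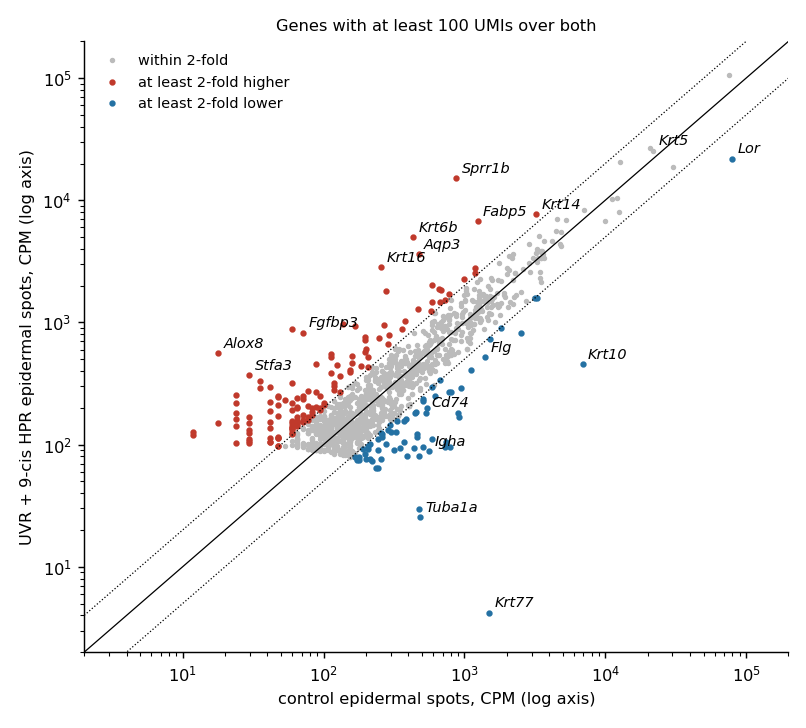
Each point is a gene with at least 100 UMIs over both epidermal samples, with its CPM in UVR plus 9-cis HPR epidermis on the y axis and in control epidermis on the x axis, both on log axes. Dotted lines mark 2-fold, genes with no control UMI stand at the level of 3 UMIs, and Krt77 lies farthest below the diagonal while Sprr1b, Krt6b, Krt16 and Alox8 lie far above it.

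Krt16, a type I keratin of stressed and hyperproliferative epidermis, had 2825 CPM in epidermal spots of the 9-cis HPR section (2452 on the left and 3133 on the right side of the image) and 255 CPM in control epidermis (213 and 293). It was 11.1-fold higher (8.19 to 15.3). Krt6b, its type II partner, had 4993 CPM under 9-cis HPR and 433 CPM in control skin, an 11.5-fold difference (9.14 to 14.7). No side of one section overlapped a side of the other for either gene. Krt6a rested on 143 UMIs under 9-cis HPR and 3 in control skin, a ratio of 8.47 (2.84 to 41.5), and Krt17, which also belongs to hair follicle and injured epidermis, was 2.98-fold higher at 743 CPM against 249 CPM. All 4 measured stress keratins were thus at least 2-fold higher in epidermal spots, with a median log2 ratio of 3.27. Of the 3128 genes with at least 20 UMIs, 12.8% were that much higher, and their median was -0.043. Krt6a passed that minimum on its 9-cis HPR UMIs alone, so this count is a description only. Over whole sections 3 of 4 reached 2-fold higher, beside 8.29% of all genes. In spots neither epidermal nor muscle-bearing 1 of 3 did (median 0.79), beside 10.1%. Probes for Krt6a and Krt6b, and for Krt14, Krt16 and Krt17, target near-identical genes, and how reads were shared among them is not given in the sources used here.

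Thinning every epidermal spot to 1000 UMIs removed the difference in depth. Krt16 was then seen in 81.2% of the 181 spots with 9-cis HPR (74.7% to 86.6%) and in 22.2% of the 72 control spots (13.3% to 33.6%), and without thinning in 92.3% and 40.3%. Muscle-rich spots, with at least 1000 UMIs and at least 10% of them in skeletal muscle markers, should lack the gene. Thinned in the same way, they showed it in 18.2% of 22 spots of the 9-cis HPR section and in 25.0% of 12 spots of the control section. Their median depths were 1160 UMIs in the 9-cis HPR section and 2798 UMIs in the control section. For Krt6b the thinned shares were 84.5% with 9-cis HPR and 36.1% in control epidermis, beside 18.2% and 50.0% in muscle-rich spots of the same sections. With 12 muscle-rich control spots, their shares had intervals of 5.49% to 57.2% for Krt16 and 21.1% to 78.9% for Krt6b. The control epidermal shares of both keratins lay within these intervals. They could not be told apart from the background of the control area and are not read as expression there. The ratios of both genes are therefore set against a control level that may be background. The UVR section, which shared that area, had 8784 CPM of Krt16 in its epidermal spots, and the retinol section had 2245 CPM. Its part in the control background was not tested.

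**Figure D2:**
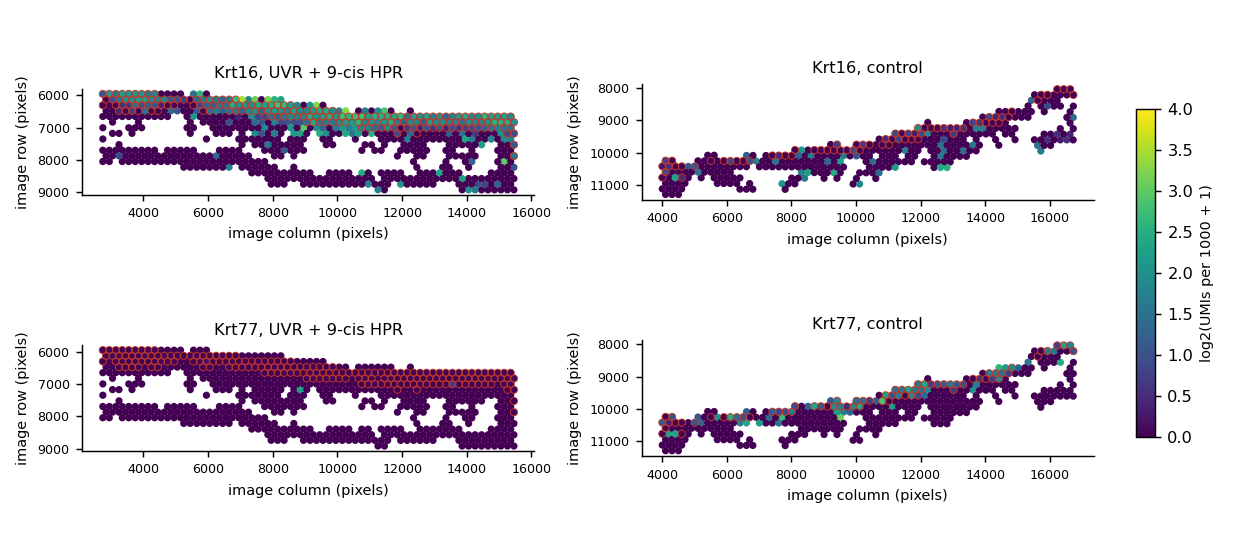
Each dot is a spot with at least 200 UMIs at its position in the tissue image (axes in image pixels), coloured by log2 of UMIs per 1000 plus 1 for Krt16 (top) and Krt77 (bottom), with UVR plus 9-cis HPR on the left and control on the right. Red rings mark epidermal spots: Krt16 is bright along the epidermal edge of the 9-cis HPR section, and Krt77 along that of the control section.

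Small proline-rich proteins are cross-linked into the cornified envelope, and the Sprr1 genes are raised in injured or irradiated epidermis. Sprr1b was among the most abundant transcripts, with 15150 CPM in epidermis of the 9-cis HPR section (14140 left, 15990 right) and 879 CPM in control epidermis (664 and 1071). It was 17.2-fold higher (14.7 to 20.4). Among single epidermal spots, Sprr1b had a median of 8.70 UMIs per 1000 with 9-cis HPR (5th to 95th percentile 0.898 to 34.9) and 0.630 in control skin (0 to 1.84), so the ranges overlapped between 0.898 and 1.84 while the medians lay apart. Sprr1a had 879 CPM with 9-cis HPR and 59.4 CPM in control epidermis, a 14.8-fold difference (8.01 to 31.0). Over whole sections its ratio was 4.21 (3.21 to 5.62). Spots neither epidermal nor muscle-bearing had more of both genes than epidermal spots in the control section, with 312 CPM of Sprr1a and 1399 CPM of Sprr1b. The ratios in those spots were 1.06 (0.687 to 1.66) for Sprr1a and 2.70 (2.265 to 3.23) for Sprr1b. Background in these control levels was not tested. Of 12 family members with probes, 4 had at least 20 UMIs, and all 4 had ratios of at least 2, beside 12.8% of all genes. Sprr2d (38 UMIs with 9-cis HPR, 0 in control) had a ratio of 2.25 with the control set to 3 UMIs, and its exact interval began at 1.74. Sprr1a, Sprr2d and Sprr2h passed the minimum of 20 UMIs on their 9-cis HPR UMIs alone, so their part in this count is a description only. Sprr2h had 31 UMIs with 9-cis HPR and 2 in control epidermis, and its interval of 0.701 to 23.8 included 1. Probes of the closely related Sprr2 genes may also cross-read.

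The 250 bases before the start of Sprr1b, Sprr1a, Alox8 and Krt77 are printed because these genes were among the most different in either direction. They come from RefSeq on GRCm38.p6, the assembly also called mm10, and all 4 lie on the minus strand, at chr3:92438780-92439029, chr3:92485882-92486131, chr11:69197844-69198093 and chr15:101869706-101869955 in that order. They read 5′ to 3′ along the gene. Capitals mark TGANTCA, the letters bound by AP-1 factors (its reverse complement has the same form), and TATAAA.
Sprr1b: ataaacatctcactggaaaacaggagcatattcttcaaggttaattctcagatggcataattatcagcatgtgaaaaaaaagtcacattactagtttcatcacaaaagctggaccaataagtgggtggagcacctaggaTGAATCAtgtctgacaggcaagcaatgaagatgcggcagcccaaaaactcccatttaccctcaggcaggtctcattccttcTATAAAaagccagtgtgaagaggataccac
Sprr1a: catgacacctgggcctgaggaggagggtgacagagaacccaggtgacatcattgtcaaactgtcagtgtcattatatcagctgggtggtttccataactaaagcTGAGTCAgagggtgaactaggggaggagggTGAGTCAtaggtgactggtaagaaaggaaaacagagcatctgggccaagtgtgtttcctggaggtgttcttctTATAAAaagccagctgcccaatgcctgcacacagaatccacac
Alox8: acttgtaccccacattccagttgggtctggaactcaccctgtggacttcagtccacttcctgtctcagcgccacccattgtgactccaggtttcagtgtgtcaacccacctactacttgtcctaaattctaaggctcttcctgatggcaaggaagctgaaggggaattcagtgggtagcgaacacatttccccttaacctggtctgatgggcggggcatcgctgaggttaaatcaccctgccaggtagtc
Krt77: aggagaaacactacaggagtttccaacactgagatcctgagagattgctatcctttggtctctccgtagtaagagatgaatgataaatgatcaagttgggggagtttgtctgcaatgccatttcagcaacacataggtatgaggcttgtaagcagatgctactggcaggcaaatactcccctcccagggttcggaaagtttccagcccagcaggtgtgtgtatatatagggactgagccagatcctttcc
Sprr1b had 1 AP-1 match, its first base 111 bases upstream, and Sprr1a had 2, at 146 and 116 bases. Each of these windows also had 1 TATAAA. Neither motif occurred in the windows of Alox8 and Krt77. On either strand, 6.75% of 32851 promoters of this length held the AP-1 letters and 12.4% held TATAAA. The half-site of retinoid receptors, searched as AGGTCA, was in none of the 4 windows and in 14.02% of all promoters. These matches describe letters and show no binding.

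Krt77 and Krt10, keratins of spinous cells, were much lower with 9-cis HPR. Krt77, a type II keratin of mouse skin, rested on 4 UMIs in 181 epidermal spots with 9-cis HPR and on 254 UMIs in 72 control spots. Its level was 4.22 CPM with 9-cis HPR and 1508 CPM in control epidermis, a 357-fold lower value with an interval of 138 to 1322. After thinning it was seen in 0.552% of spots with 9-cis HPR and 66.7% of control spots (54.6% to 77.3%), and in no muscle-rich spot of either section. The retinol section had 12.0 CPM of Krt77 and the UVR section 1.89 CPM, so control skin stood apart from all 3 other sections.

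Krt10, the main type I keratin of spinous cells, had 457 CPM with 9-cis HPR (333 left, 559 right) and 6911 CPM in control epidermis (6370 and 7397). It was 15.1-fold lower (13.5 to 16.9), and thinned spots showed it in 29.8% with 9-cis HPR and 97.2% in control. Krt1, the usual partner of Krt10, had 403 CPM with 9-cis HPR and 617 CPM in control epidermis, a ratio of 0.653 (0.524 to 0.819) that did not reach 2-fold. The 2 partner keratins therefore differed unequally. Dsg1a, a desmosomal cadherin of upper layers, was 2.81-fold lower (1.83 to 4.25), whereas its neighbour Dsg1b had a ratio of 1.60 (0.900 to 3.09). Of 13 measured spinous genes, 6 were lower and 1 higher by at least 2-fold, with a median log2 ratio of -0.87, where 13.4% of all genes with at least 20 UMIs were that much lower.

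Cornified envelope genes split. Lor, the major envelope protein, had 21930 CPM with 9-cis HPR and 79360 CPM in control epidermis, 3.62-fold lower; it helped choose the spots and is given as a description only. Over whole sections, where no such choice was made, Lor had 17680 CPM with 9-cis HPR and 47850 CPM in control skin, 2.71-fold lower (2.65 to 2.76). Flg, the filaggrin precursor that aggregates keratin and yields natural moisturising factor, had 519 CPM with 9-cis HPR (494 and 540 by side) and 1395 CPM in control epidermis (1241 and 1534), 2.69-fold lower (2.29 to 3.15). The late cornified envelope genes Lce1a2, Lce1c, Lce1d and Lce1f were 6.30-, 11.7-, 6.75- and 21.1-fold lower, on 8 to 25 UMIs each with 9-cis HPR and 27 to 30 each in control epidermis. They lie in 1 cluster on chromosome 3 with near-identical sequences. Tgm1, the transglutaminase that cross-links the envelope, went the other way, with 1853 CPM under 9-cis HPR and 683 CPM in control epidermis, 2.71-fold higher (2.25 to 3.31). Hrnr, a filaggrin relative, had 111 CPM with 9-cis HPR and 124.7 CPM in control epidermis, a ratio of 0.888 (0.552 to 1.495).

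In all, 6 of 17 measured envelope genes were at least 2-fold lower and 2 higher in epidermal spots (median log2 ratio -0.59), beside 13.4% lower and 12.8% higher of all genes. The lower genes there included Lor, which helped choose the spots, and the near-identical Lce1a2, Lce1c, Lce1d and Lce1f, so that count is a description only. Over whole sections 9 of 20 were lower and 3 higher, beside 17.3% lower and 8.29% higher among 4353 genes with at least 20 UMIs. Restricting epidermis to spots with at least 10% of UMIs in the 3 choosing genes left 15 spots of the 9-cis HPR section and 34 of the control section, and there the envelope median was 0.23 and Flg also stood higher with 9-cis HPR. The lower envelope levels thus held for epidermis as chosen at 3% and for whole sections, and not for the spots richest in those 3 genes. Krt10, Krt77 and Lce1f were lower with 9-cis HPR under that limit as well.

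**Figure D3:**
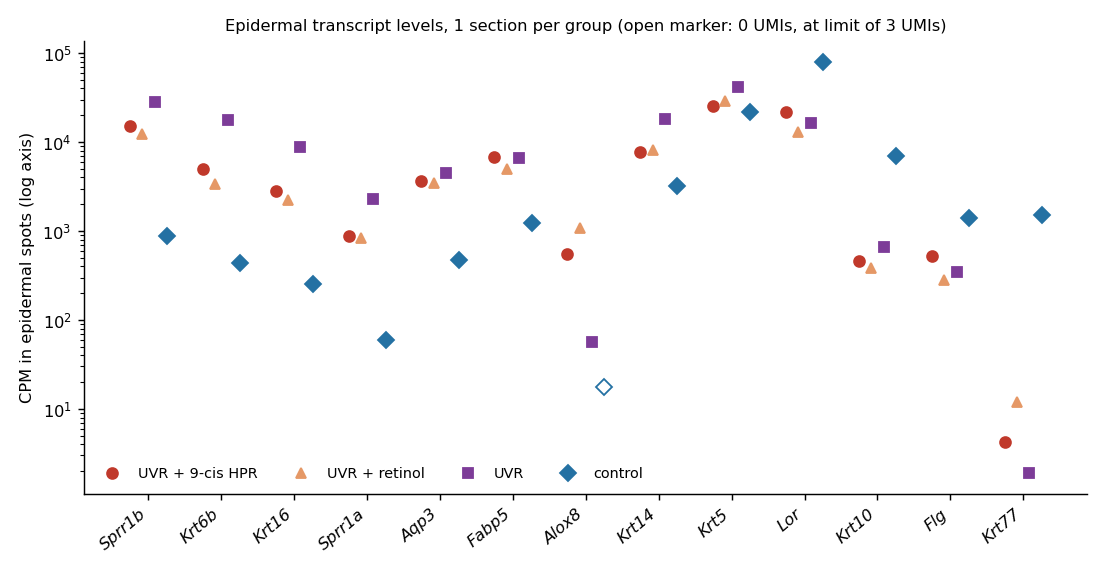
CPM in epidermal spots (log y axis) of 13 genes (x axis) in the UVR plus 9-cis HPR, UVR plus retinol, UVR and control sections, 1 section a group. The open marker shows Alox8 in control epidermis, with no UMI, at the level of 3 UMIs; control stands lowest for Sprr1b, Krt6b, Krt16, Aqp3 and Fabp5 and highest for Lor, Krt10, Flg and Krt77.

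Basal genes were mostly within 2-fold. Krt5 had 25520 CPM with 9-cis HPR and 21840 CPM in control epidermis, and Krt14 7701 CPM with 9-cis HPR and 3212 CPM in control, but both chose the spots. Krt15, a keratin of quiescent basal and follicle bulge cells, had 8 UMIs with 9-cis HPR and 26 in control epidermis, 18.3-fold lower (8.04 to 46.7). Col17a1, a hemidesmosome collagen that anchors basal cells, was 3.51-fold lower (2.27 to 5.34), at 64.3 CPM with 9-cis HPR and 226 CPM in control epidermis. Plec, the plakin of hemidesmosomes, was 1.64-fold lower (1.23 to 2.16). The other 8 of 13 measured genes had ratios between 0.592 and 1.17.

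Cell-division genes gave no common direction. Mcm2, a subunit of the replicative helicase, had 246 CPM with 9-cis HPR and 255 CPM in control epidermis, and Mcm3 162 CPM with 9-cis HPR and 238 CPM in control. Ticrr, which helps fire replication origins, was 2.77-fold higher (1.14 to 8.77) on 78 UMIs with 9-cis HPR and 5 in control. It was the only one of 8 measured members past 2-fold, near the 12.8% of all genes that were that much higher, and the list median was -0.15. Of 30 division genes with probes, 22 had fewer than 20 UMIs over both epidermal samples. Mcm2 reached 663 CPM in the UVR section, against which the 9-cis HPR and control values lay close together.

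Lipoxygenases moved in opposite directions. Alox8, the mouse 8-lipoxygenase, which oxidises arachidonic acid, had 528 UMIs in epidermal spots with 9-cis HPR (557 CPM, 604 left and 518 right) and no UMI in control epidermis. It was 31.3-fold higher there with the control set to 3 UMIs, and the exact interval began at 25.3-fold. The whole-section ratio, on 577 UMIs with 9-cis HPR and 2 in control skin, was 75.3 (20.7 to 623). Thinned spots showed it in 35.4% with 9-cis HPR (28.4% to 42.8%) and in 0 of 72 in control, which allows a share of spots with a UMI at that depth of up to 4.17% by the level of 3 spots. Alox8 had 1094 CPM in the retinol section and 56.3 CPM in the UVR section, so the 2 sections given a retinoid held the highest levels, both on 1 capture area. Alox12e, the epidermal-type 12-lipoxygenase, had 319 CPM with 9-cis HPR and 59.4 CPM in control epidermis, 5.37-fold higher (2.88 to 11.3). Alox12, the platelet-type enzyme, had 13 UMIs with 9-cis HPR and 15 in control, 6.49-fold lower (2.88 to 14.8).

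Among barrier lipid genes, Elovl1, an elongase of very long fatty acids for ceramides, was 3.78-fold lower (2.48 to 5.71) at 64.3 CPM with 9-cis HPR and 243 CPM in control epidermis. Sptlc2, a subunit of the enzyme that starts ceramide synthesis, had 3400 CPM with 9-cis HPR and 2179 CPM in control, a ratio of 1.56 (1.40 to 1.74). Of 15 measured genes of lipids and lipoxygenases, 3 reached 2-fold higher and 3 reached 2-fold lower, beside 12.8% higher and 13.4% lower of all genes.

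Retinoid handling genes lay on both sides of control. Fabp5, which carries fatty acids and retinoic acid, had 6763 CPM with 9-cis HPR (5871 left, 7501 right) and 1241 CPM in control epidermis (1291 and 1195), 5.45-fold higher (4.75 to 6.29). Spot by spot, its median was 6.29 UMIs per 1000 with 9-cis HPR, with a 5th percentile of 2.72, and 1.09 in control, with a 95th percentile of 2.70. Crabp2, which delivers retinoic acid to RAR, had 1476 CPM with 9-cis HPR and 677 CPM in control epidermis, 2.18-fold higher (1.80 to 2.66). The UVR section had more Crabp2 than the 9-cis HPR section, at 1969 CPM.

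Rarg, the main retinoic acid receptor of epidermis, had 1223 CPM with 9-cis HPR and 1211 CPM in control, a ratio of 1.01 (0.869 to 1.18). Rxra, the common RXR partner, was 3.13-fold lower (1.55 to 6.09) on 27 UMIs with 9-cis HPR and 15 in control. Dhrs3, a retinaldehyde reductase and a known retinoic acid target, was 3.44-fold lower (1.47 to 7.69) on 18 and 11 UMIs in the same order. Of 29 retinoid genes, 9 were measured in epidermis, with 4 higher and 2 lower by at least 2-fold, beside 12.8% and 13.4% of all genes, and the median log2 ratio was 0.09.

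Ligands and receptors of the epidermal growth factor family rested on few counts, with 3 of 5 measured members at least 2-fold higher and none lower, beside 12.8% and 13.4% of all genes. The higher members, Hbegf, Areg and Ereg, passed the minimum for measured genes on their 9-cis HPR UMIs alone, so this count is a description only. Hbegf had 48 UMIs with 9-cis HPR and 0 in control epidermis, 2.84-fold higher with the control set to 3 UMIs (interval from 2.22). Areg had 64 UMIs with 9-cis HPR and 5 in control, 2.27-fold higher (0.925 to 7.24), and Ereg 91 UMIs with 9-cis HPR and 8 in control, 2.02-fold higher (0.983 to 4.82), so both intervals included 1. The receptor Erbb3 had a ratio of 1.30 (1.02 to 1.68). The retinol section had the most Hbegf and Areg of the 4 sections, at 156 and 221 CPM.

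Single channel and junction genes differed in both directions. Aqp3, the channel that brings water and glycerol into keratinocytes, had 3631 CPM with 9-cis HPR (3625 and 3636 by side) and 475 CPM in control epidermis (464 and 485), 7.64-fold higher (6.12 to 9.66). Thinned spots showed it in 92.3% with 9-cis HPR and 33.3% in control epidermis, and in 13.6% and 0% of muscle-rich spots of the same sections. With 12 muscle-rich control spots that 0 has an interval up to 26.5%, which overlaps the 22.7% to 45.4% of control epidermis. Aqp5, a water channel of glands, had 66 UMIs with 9-cis HPR and 0 in control, 3.91-fold higher with the control set to 3 UMIs (interval from 3.09). Gjb2, the connexin of wounded epidermis, was 5.24-fold higher (2.62 to 12.3) at 249 CPM with 9-cis HPR and 47.5 CPM in control. Gjb6 had 28 UMIs with 9-cis HPR and 0 in control, 1.66-fold higher with the control set to 3 UMIs (interval from 1.26). The adherens protein Ctnna1 was 3.92-fold lower (2.41 to 6.28). Jup, plakoglobin of desmosomes, was the most abundant listed junction gene at 106300 CPM with 9-cis HPR and 75750 CPM in control, a ratio of 1.40 (1.38 to 1.43). Of 17 measured junction genes, 1 passed 2-fold upward and 3 downward, near the 12.8% and 13.4% of all genes. Cldn1, the main claudin of the epidermal tight junction, was 2.29-fold lower (1.10 to 4.48).

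Most p53 targets lay within 2-fold of control, and antioxidant genes differed among themselves. Cdkn1a, the p21 cell-cycle inhibitor, had 4352 CPM with 9-cis HPR and 4773 CPM in control epidermis, a ratio of 0.912 (0.845 to 0.985), and Phlda3 a ratio of 1.07 (0.757 to 1.54). Of 10 measured p53 targets 1 was at least 2-fold higher and 1 lower, near the shares over all genes (12.8% and 13.4%). The higher one was Zmat3, on 69 UMIs with 9-cis HPR and 5 in control (2.45-fold, 1.00 to 7.79), and the lower one was Btg2, an inhibitor of proliferation, with a ratio of 0.492 (0.255 to 1.01). Mt1, a metallothionein, had 1423 CPM with 9-cis HPR and 2214 CPM in control epidermis, and its relative Mt2 had 194 CPM with 9-cis HPR and 332 CPM in control. Gpx1, a glutathione peroxidase, was 2.13-fold higher (1.84 to 2.47), at 2516 CPM with 9-cis HPR and 1181 CPM in control. Sod1, a superoxide dismutase, and Prdx2, a peroxiredoxin, were 4.22- and 2.95-fold lower, on 12 and 21 UMIs with 9-cis HPR and 9 and 11 in control. Of 7 measured metallothionein and antioxidant genes, 1 was higher and 2 were lower by at least 2-fold (median log2 ratio -0.64). Of all genes, 12.8% were that much higher and 13.4% lower (median -0.043). The UVR section had 4916 CPM of Mt1, more than 9-cis HPR or control.

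**Figure D4:**
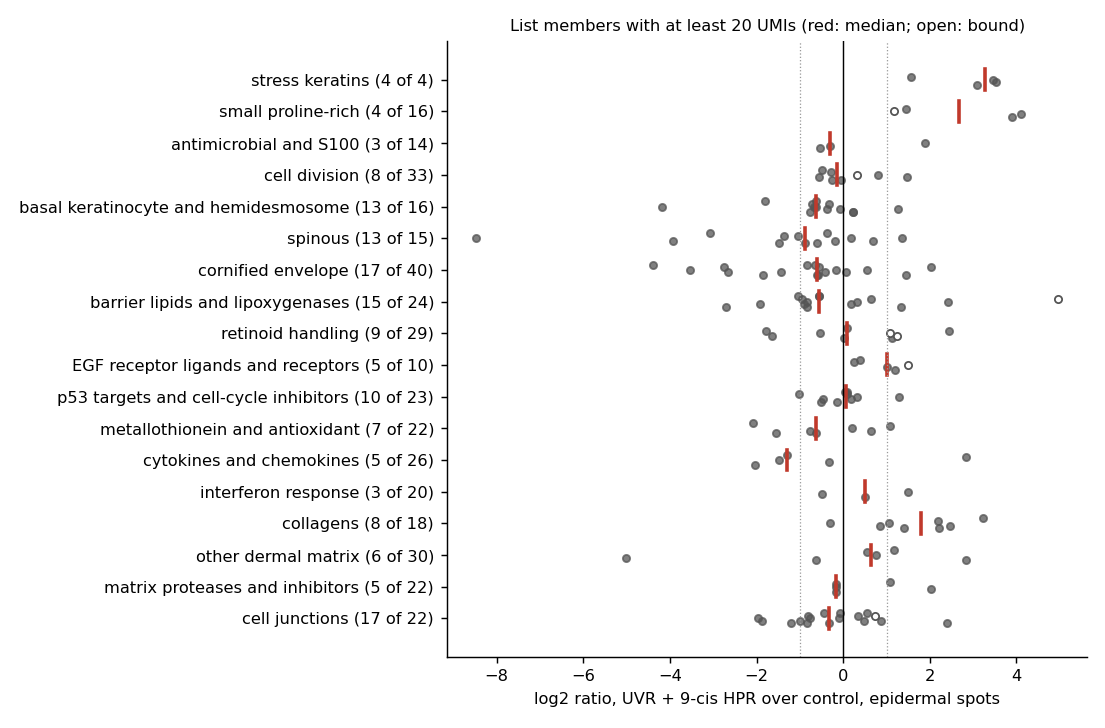
Log2 ratios of UVR plus 9-cis HPR over control in epidermal spots (x axis) for the members of each gene list (y axis) with at least 20 UMIs over both. Each dot is a gene, and open dots are genes with no UMI in a section, which was set to 3 UMIs. Red bars are list medians, dotted lines mark 2-fold, and brackets give measured of listed genes. Stress keratins (median 3.27), small proline-rich genes (2.67) and collagens (1.79) lie furthest right, and Krt77 is the leftmost point. Each of these right-hand lists held members that passed the minimum on their 9-cis HPR UMIs alone.

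Collagen transcripts depended on where they were counted. Over whole sections Col1a2 had 991 CPM with 9-cis HPR and 1046 CPM in control skin, Col3a1 423 CPM with 9-cis HPR and 411 CPM in control, and Col1a1, which with Col1a2 forms the main dermal collagen, 177 CPM with 9-cis HPR and 304 CPM in control. Of 12 measured collagen genes, 1 passed 2-fold upward, Col5a3 at 2.505-fold (1.002 to 8.06), and 1 downward, with a median log2 ratio of 0.0042. Of all genes, 8.29% were that much higher and 17.3% lower. In epidermal spots 6 of 8 collagens were at least 2-fold higher and none lower, median 1.79, beside 12.8% higher and 13.4% lower of 3128 genes. Members such as Col5a1, Col1a1 and Col3a1 passed the minimum of 20 UMIs on their 9-cis HPR UMIs alone. This epidermal count and median are therefore a description only. Col5a1, a chain that sets fibril diameter, had 331 CPM with 9-cis HPR and 35.6 CPM in control epidermis there, 9.30-fold higher (4.22 to 25.5), and for Col3a1 the ratio was 2.09 (1.25 to 3.73). The summed level of 9 fibroblast markers in epidermal spots was 699 CPM with 9-cis HPR and 374 CPM in control, and the part of dermal RNA in this difference was not tested. In the remaining spots, neither epidermal nor muscle-bearing, 3 of 10 collagens were at least 2-fold higher and none lower (median 0.70), beside 10.1% higher and 10.9% lower of 1836 genes.

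Several other matrix genes and proteases were lower over whole sections. Tnxb, a tenascin that organises collagen fibrils, had 72.8 CPM with 9-cis HPR (106 left, 42.6 right) and 776 CPM in control skin (847 and 714), 10.7-fold lower (8.35 to 13.7). Bgn, the proteoglycan biglycan, was 4.17-fold lower (2.27 to 7.68), and Eln, elastin, 2.67-fold lower (1.498 to 4.69) on 33 UMIs with 9-cis HPR and 23 in control. Of 16 measured matrix genes 8 were lower and none higher by at least 2-fold (median log2 ratio -0.78), beside 17.3% lower and 8.29% higher of all genes. In epidermal spots 2 of 6 were higher and 1 lower (median 0.65), beside 12.8% higher and 13.4% lower of all genes. In remaining spots 2 of 8 were higher and 2 lower, beside 10.1% higher and 10.9% lower of all genes. Neither epidermal nor remaining spots thus had most of the measured members lower. Ctsb, a lysosomal protease, had 131 CPM with 9-cis HPR and 463 CPM in control, 3.53-fold lower (2.81 to 4.43), Ctsk was 7.12-fold lower (4.09 to 12.7), and Mmp12, the macrophage elastase, 4.36-fold lower (2.36 to 8.10). Of 10 measured proteases and inhibitors 6 were at least 2-fold lower and 1 higher over whole sections, beside 17.3% lower and 8.29% higher of all genes. In epidermal spots 2 of 5 were higher and none lower (median -0.17), beside 12.8% higher and 13.4% lower of all genes. With spot classes weighted alike, the log2 ratios over whole sections were -2.04 for Tnxb, -0.35 for Eln, -1.41 for Ctsb, -1.81 for Ctsk and -0.90 for Mmp12, so Eln and Mmp12 no longer reached 2-fold.

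Spots neither epidermal nor muscle-bearing made up more of the control section, and they include the spots that met the epidermal share with fewer than 1000 UMIs. These remaining spots were 40.1% of spots and 14.5% of UMIs with 9-cis HPR and 67.3% of spots and 34.4% of UMIs in control skin. Summed over whole sections, 16 macrophage and dendritic markers reached 619 CPM with 9-cis HPR and 1420 CPM in control. Of 8 measured members, 6 were at least 2-fold lower, beside 17.3% of all genes. In epidermal spots 1 of 3 measured markers was that much lower and in remaining spots 2 of 4, beside 13.4% and 10.9% of all genes. Cd74, the invariant chain of MHC class II, was 2.95-fold lower (2.49 to 3.49) over whole sections and 2.93-fold lower (2.24 to 3.80) in epidermal spots, with 183 CPM there under 9-cis HPR and 534 CPM in control. With spot classes weighted alike its whole-section log2 ratio was -0.98, just under 2-fold. H2-Ab1, a class II chain that binds the same partner, had 229 CPM with 9-cis HPR and 220 CPM in control epidermis, a ratio of 1.04 (0.733 to 1.52), and H2-Eb1 a ratio of 0.558 (0.337 to 0.961). Their part in the whole-section matrix and protease values was not tested. Markers of T cells, neutrophils, mast cells and smooth muscle had no member with 20 UMIs.

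Igha, the heavy chain of immunoglobulin A, had 88.6 CPM with 9-cis HPR and 564 CPM in control epidermis, 6.37-fold lower (4.70 to 8.64). In control epidermis the left side of the image had 188 CPM and the right side 902 CPM. In single epidermal spots its median was 0 in both sections, with a highest value of 1.175 UMIs per 1000 with 9-cis HPR and 37.0 in control, where the 95th percentile was 2.14, so few control spots carried the difference. In remaining spots the direction was the opposite, with 2072 CPM with 9-cis HPR and 1168 CPM in control, a ratio of 1.77 (1.45 to 2.18). After thinning, 12.2% of epidermal spots with 9-cis HPR and 13.9% of control spots had an Igha UMI, and the intervals of these shares overlapped (7.78% to 17.8% and 6.87% to 24.1%). Cxcl14, a chemokine made by resting epidermis, was 2.81-fold lower (1.77 to 4.399) with 65.4 CPM under 9-cis HPR and 184 CPM in control, and Il1rn, the interleukin-1 receptor antagonist, 4.13-fold lower (1.72 to 9.62) on 15 UMIs with 9-cis HPR and 11 in control. Ccl8, a monocyte chemokine, had 40 UMIs with 9-cis HPR and 1 in control epidermis, a ratio of 7.11 (1.20 to 288). Psmb8, an immunoproteasome subunit, was 2.84-fold higher (1.06 to 10.8).

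Gland and muscle markers were mostly lower over whole sections, with 3 of 5 measured sebaceous and 8 of 14 muscle markers at least 2-fold lower, where 17.3% of all genes with at least 20 UMIs were. Of the muscle markers, 2 were at least 2-fold higher. Fa2h, which makes hydroxylated fatty acids for sebum and myelin, had 18.4 CPM with 9-cis HPR and 742 CPM in control skin, 40.3-fold lower (26.3 to 64.8). Scd1, the desaturase of sebocytes, had 25.6 CPM with 9-cis HPR and 374 CPM in control, 14.6-fold lower (9.83 to 22.3), and 13 sebaceous markers summed to 829 CPM with 9-cis HPR and 2600 CPM in control. Hair follicle keratins Krt71 and Krt28 had no UMI with 9-cis HPR and 21 and 23 UMIs in control. They were 26.8- and 29.4-fold lower with the 9-cis HPR section set to 3 UMIs (intervals from 19.96 and 22.03). The control UMIs of both came from the right side of the image alone, with none on the left.

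The 14 muscle markers summed to 13750 CPM with 9-cis HPR and 46970 CPM in control. Myh4, the fast myosin of type IIb fibres, was 13.2-fold lower (12.4 to 13.96), and Pvalb, the calcium buffer of fast fibres, 16.1-fold lower (13.2 to 19.7). Myh2, the myosin of type IIa fibres, had 53.6 CPM with 9-cis HPR and 15.3 CPM in control, 3.50-fold higher (1.43 to 11.1), and Mb, myoglobin, 2.34-fold higher (1.48 to 3.86), so muscle genes did not share 1 direction. With spot classes weighted alike, the log2 ratios were -4.42 for Fa2h, -2.85 for Scd1, -3.21 for Myh4 and -3.53 for Pvalb. Tyrp1, an enzyme of melanin synthesis, had 87 UMIs with 9-cis HPR and 0 in control epidermis, at least 5.15-fold higher, and the summed melanocyte markers were 104 CPM with 9-cis HPR and 11.9 CPM in control there.

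**Figure D5:**
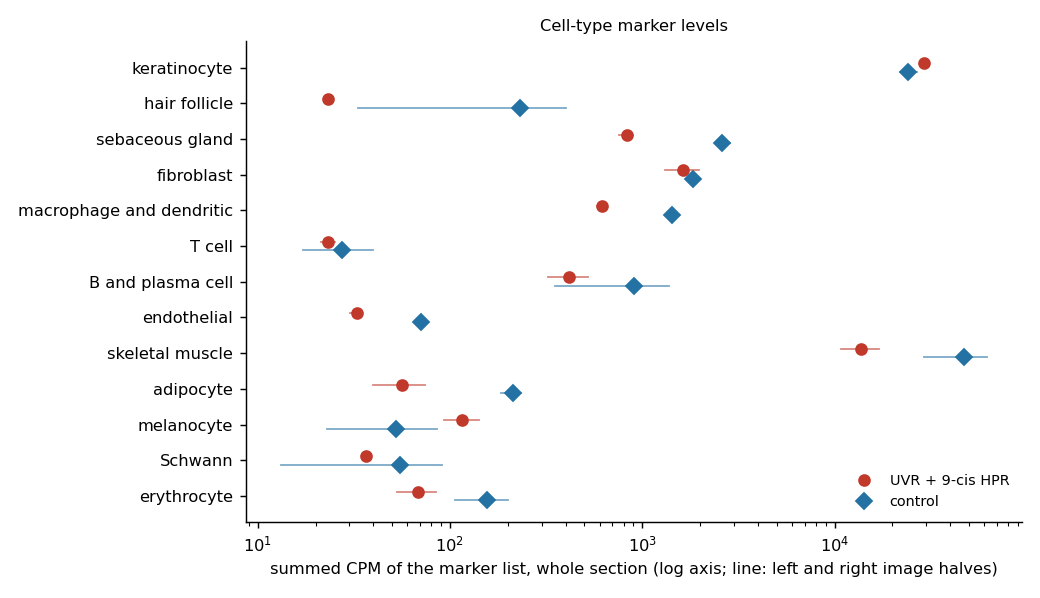
Summed CPM of cell-type marker lists over whole sections (log x axis) for UVR plus 9-cis HPR (circles) and control (diamonds), with lines joining the left and right sides of each image; list names are on the y axis. Hair follicle, sebaceous, macrophage, muscle and adipocyte sums are lower with 9-cis HPR, and keratinocyte sums differ little (29220 against 24160 CPM).

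Some of the genes with the surest differences belong to none of these lists. Stfa3, a stefin that inhibits cathepsins, had 370 CPM with 9-cis HPR and 29.7 CPM in control epidermis, 12.5-fold higher (5.29 to 38.6). Fgfbp3, a fibroblast growth factor binding protein, was 11.6-fold higher (6.58 to 22.5) with 824 CPM under 9-cis HPR and 71.2 CPM in control, and Rab31, a GTPase of vesicle traffic, 7.04-fold higher (4.67 to 11.2). Pxdc1 was 6.51-fold higher (4.88 to 8.90), and Tcf23 had 114 UMIs with 9-cis HPR and 2 in control, a ratio of 10.1 (2.74 to 84.6). Over whole sections, Smox, a polyamine oxidase, was 5.97-fold higher (4.002 to 9.30) and Coil, the Cajal body scaffold, 10.3-fold higher (4.33 to 32.0). In Stfa3, Fgfbp3, Pxdc1, Rab31 and Smox the retinol section also exceeded the UVR section.

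On the lower side, Tuba1a, an alpha-tubulin, had 24 UMIs with 9-cis HPR and 81 in control epidermis, 19.0-fold lower (11.9 to 31.3), and Syngr1, a synaptogyrin of small vesicles, 16.1-fold lower (10.3 to 25.7). Acaa2, a mitochondrial thiolase of fatty acid oxidation, had 96.0 CPM with 9-cis HPR and 790 CPM in control, 8.23-fold lower (6.25 to 10.9), and Acacb, the carboxylase that restrains that oxidation, was 5.93-fold lower (4.27 to 8.22). Ccdc3, Susd2, Agfg2, Atp1b1, the beta subunit of the sodium pump, and Kctd12 were 5.04- to 7.63-fold lower. Over whole sections Paqr7, a membrane progestin receptor, was 29.7-fold lower (21.1 to 43.1), Cst6, a cystatin of cornifying epidermis, 11.9-fold lower (9.11 to 15.8), Mgll, a monoglyceride lipase, 11.9-fold lower (8.29 to 17.3), and Casq1, a calcium store protein of muscle, 7.93-fold lower (5.76 to 11.01).

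Among the fixed skin genes not yet named, Sult5a1 was 5.08-fold higher (2.13 to 15.9) with 151 CPM under 9-cis HPR and 29.7 CPM in control epidermis. Wnt3, a ligand of the Wnt pathway, had 333 CPM with 9-cis HPR and 391.8 CPM in control epidermis, against 67.1 CPM in the UVR section. Tppp3 was 4.05-fold lower (2.08 to 7.73), Krt78 2.07-fold lower (1.33 to 3.14), and Duox1, a dual oxidase, had a ratio of 1.87 (0.905 to 4.46). Ccnd1, cyclin D1, had 39.0 CPM with 9-cis HPR and 47.5 CPM in control, and Fcgbp 90.7 CPM with 9-cis HPR and 131 CPM in control.

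Across the 4 sections, the 9-cis HPR section lay between UVR and control for Krt16 (2825 CPM, against 8784 CPM with UVR and 255 CPM in control), Krt6b (4993, against 17490 and 433 CPM in the same order) and Sprr1b (15150, against 28300 and 879 CPM). It lay near UVR and far from control for Krt10 (457 CPM, against 668 CPM with UVR and 6911 CPM in control) and Krt77. It lay outside both for Alox8, Pxdc1, Fgfbp3, Stfa3 and Col5a1, which were higher with 9-cis HPR than in either. These comparisons share sections and are given side by side as levels only.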

How the data were processed

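The deposited matrices held raw UMI counts per gene and spot for 19465 genes, made by the authors with Space Ranger 2.0.0, per the file headers; mm10 and Seurat 4.1.0 are named in the submitters' processing notes. The spot positions, in image pixels, were deposited with them. The kit is one for fixed tissue and was used on fresh-frozen sections, per the labels' protocols. Only spots over tissue were listed, so free RNA outside the tissue could not be measured.

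Sections were told apart by image row, with upper taken as the smaller row. Counts of spots with at least 200 UMIs were summed over a section, its epidermal spots or its remaining spots, and divided by the total to give CPM. A ratio of CPM has an exact 95% interval, computed by Clopper-Pearson on how a gene's UMIs divided between both sections, and a gene at 0 was set to 3 counts, which makes its ratio a bound. These cover counting error only. Spots were not used as replicates, and doublets do not apply to spots; 236 barcodes recur in both sections because the areas carry the same grid.

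Members and gene lists were chosen with earlier results of these data known. The genes named are the 12 highest and 12 lowest by the interval bound nearest to 1, over whole sections and in epidermal spots, at least 2-fold and at least 1.5-fold between each side of both images; up to 4 genes at the top and 4 at the bottom of each outcome list; and the fixed skin genes. Some genes that this rule picks are not reported here. H2-Ab1, H2-Eb1, Krt71, Krt28, Myh2, Mb, Tyrp1 and Jup were chosen after their values were seen. The remaining spots as a sample of their own, and equal weights for spot classes, were added after the data were seen.

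Gene positions and promoters were joined by symbol to RefSeq on GRCm38.p6, which matched 19106 genes. The count ratios were tested on simulated data. Python 3.11.15, numpy 2.4.6, scipy 1.17.1, pandas 2.3.3 and matplotlib 3.10.9 were used.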

Additional observations from a re-analysis of the deposited data

How the results depend on the processing

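Reading the groups by the spot grid had the widest effect. Counts of lower genes were then 267 over whole sections and 242 in epidermal spots. Log2 list medians turned to -1.64 (whole), -1.64 (epidermal) and -0.82 (remaining spots) for stress keratins, to -1.27 and -1.26 (whole, epidermal) for small proline-rich genes, to 0.27 for proteases (whole), to 0.48 and 1.52 (whole, epidermal) for macrophage and dendritic markers, to 0.25 for cytokines (epidermal) and to -0.56 for collagens (remaining spots); whole-section collagens moved to 0.81 and epidermal cell division to -1.41. Log2 ratios in epidermal spots turned for Krt16 (-1.97), Krt6b (-2.37), Krt6a (-1.31), Krt17 (-0.57), Sprr1b (-1.21), Sprr1a (-1.43), Sprr2h (-1.30), Sprr2d (-0.68), Krt77 (2.66), Lce1c (0.15), Lce1d (0.27), Krt14 (-1.17), Ticrr (-1.13), Fabp5 (-0.41), Crabp2 (-0.79), Ereg (-1.35), Aqp3 (-0.39), Aqp5 (-2.31), Gjb2 (-1.38), Zmat3 (-0.81), Gpx1 (-0.27), Cd74 (1.52), Igha (0.14), Ccdc3 (1.30), Agfg2 (0.46), Tcf23 (-2.49), Tyrp1 (-0.76), Il1rn (0.63) and Atp1b1 (0.67). Over whole sections they turned for Tnxb (0.41), Ctsk (0.27), Mmp12 (1.01), Fa2h (0.87), Scd1 (1.63), Mgll (1.16) and Cd74 (1.43). Besides the 36 values that turned, 64 values of named genes moved under this reading and 20 stayed the same. It sets the retinol section against the UVR section.

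With at least 10% of UMIs in Krt5, Krt14 and Lor, 35 epidermal genes were higher and 32 lower, the spinous median was -0.089 and the cornified median 0.23, and Krt78 (0.81), Flg (0.38), Areg (-0.44) and Col3a1 (-2.28) turned and a further 50 named genes moved; only 198 genes were then compared. Counts of higher and lower genes followed the minimum: 361 and 755 (whole) and 399 and 419 (epidermal) with 20 UMIs, 41 and 24, and 38 and 9, with 500 UMIs, and 1756 and 3620, and 3640 and 2721, with all genes kept and 1 CPM added to each value, under which the epidermal cytokine median was 0.66. With the whole interval past 2-fold they were 53 and 67, and 55 and 32, and at equal total UMIs 62 and 75, and 43 and 31. The left image side alone gave 58 lower genes (whole) and 79 higher and 31 lower (epidermal), with Sprr2d at -0.31, and the right side 34 lower (epidermal). Equal weights for spot classes gave 78 lower genes and a collagen median of 0.63, and moved 21 of the 29 named whole-section genes, and spots with at least 500 UMIs a collagen median of 0.49. Mb was at -2.15 in spots with muscle markers under 1%, which removes muscle by construction. The cause of the other changes was not tested. No named gene at least 2-fold apart turned direction under the scaling alternatives, the junction-gene choice of epidermal spots, or a limit of 1% or 2000 UMIs. No paired analysis was possible because each group had 1 section. A gene with no UMI in control epidermis, which had 168438 UMIs, could have had up to 17.8 CPM, the level of 3 UMIs.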
